A study of Rattus norvegicus with 16 samples.

Results

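The Cyp3a family of rat cytochrome P450 enzymes was followed through 5 genes, Cyp3a23-3a1, Cyp3a2, Cyp3a9, Cyp3a18 and Cyp3a62, in the livers of male pups whose mothers received mixtures of environmental contaminants. The genes were found on the array by their RefSeq transcript numbers, and each of the 5 had 1 probe among the 30367 probes: NM_013105 for Cyp3a23-3a1, NM_153312 for Cyp3a2, NM_147206 for Cyp3a9, NM_145782 for Cyp3a18 and NM_001024232 for Cyp3a62. Of these, 4 were bright enough in liver to be tested among 13139 transcripts. Cyp3a9 was not well above background in liver on any of the 16 arrays.

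The pups were Sprague-Dawley males of 21 days that stayed with their birth mothers, and the mothers were dosed from gestation day 0 to postnatal day 20. Controls (C) had corn oil. The 0.5M and M groups had polychlorinated biphenyls, organochlorine pesticides and methylmercury together, at total doses of 0.5 and 1.0 mg/kg/day. The AhR group had combined agonists of the aryl hydrocarbon receptor, at a dioxin-equivalent dose of 1.8 ng/kg/day. Each group had 4 arrays, every array held liver RNA pooled from 2 pups, and arrays 1 and 2 of each group lay on slide 1 while arrays 3 and 4 lay on slide 2. Litters are not named in the labels, so p-values measure the spread between pools and would be too small if pools shared litters.

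CYP3A enzymes sit in the endoplasmic reticulum of hepatocytes and oxidise steroids, bile acids and many drugs and pesticides. Their genes are known targets of the pregnane X receptor (PXR, gene Nr1i2), which pairs with a retinoid X receptor and, once bound by a foreign compound or steroid, sits on paired copies of a short half-site in front of its target genes. The constitutive androstane receptor (CAR, gene Nr1i3) shares many of these targets, and in the rat several Cyp3a genes are also set by sex and by age.

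All values below are log2 ratios of the liver signal (Cy5) to a reference RNA from 14 rat cell lines (Cy3), so the level of one gene is not set against that of another, and genes are compared only by how far they differ between groups. On slide 1, 7079 to 13765 probes were well above background in liver, against 12994 to 15685 on slide 2. The 8 hepatocyte markers were well above background on every array. Skeletal muscle transcripts were high on array M 2 (mean log2 Cy5 signal of 9 genes 10.3) and 0.5M 4 (10.9) against 6.06 to 7.08 on the other arrays, and exocrine pancreas transcripts were highest on M 1 (7.65) and AhR 2 (7.09) against 6.22 to 6.45 elsewhere. Array C 2 had the highest mean of 5 fat markers (7.61), close to C 4 (7.56), against 7.25 to 7.46 on the other arrays. Values without M 1, M 2, 0.5M 4, AhR 2 and C 2 are given beside the calls that are lost without them.

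The sequences upstream of the start sites differ between the genes. The genes were listed as PXR-related, and the arrangements searched are of the kind PXR sits on. The search is therefore not independent of the choice of genes. Sequences of 250 bases upstream of each start site were taken from RefSeq (build GRCr8, chromosome 12) and searched on both strands for the half-sites AGTTCA and AGGTCA in 12 paired arrangements: direct repeats with a gap of 3 or 4 bases and everted repeats with a gap of 6. Cyp3a23-3a1 and Cyp3a2 each hold 1 direct repeat with a gap of 3, and no pair was found in the windows of Cyp3a9, Cyp3a18 and Cyp3a62. Cyp3a23-3a1 and Cyp3a2, which show the repeat, and Cyp3a62, which lacks it, are printed below 5′ to 3′ on the strand of the gene, with the paired half-sites in capitals.

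Cyp3a23-3a1, chr12:14398804-14399053, minus strand: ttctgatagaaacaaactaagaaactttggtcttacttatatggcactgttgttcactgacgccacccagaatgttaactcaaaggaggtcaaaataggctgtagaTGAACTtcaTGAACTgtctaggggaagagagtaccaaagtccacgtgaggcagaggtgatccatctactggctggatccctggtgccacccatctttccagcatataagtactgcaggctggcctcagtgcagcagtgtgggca
Cyp3a2, chr12:14343858-14344107, minus strand: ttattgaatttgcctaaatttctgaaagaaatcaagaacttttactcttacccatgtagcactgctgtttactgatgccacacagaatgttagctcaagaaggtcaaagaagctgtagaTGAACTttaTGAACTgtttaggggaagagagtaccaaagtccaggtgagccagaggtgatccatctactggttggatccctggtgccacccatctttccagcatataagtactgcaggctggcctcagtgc
Cyp3a62, chr12:21511513-21511762, plus strand: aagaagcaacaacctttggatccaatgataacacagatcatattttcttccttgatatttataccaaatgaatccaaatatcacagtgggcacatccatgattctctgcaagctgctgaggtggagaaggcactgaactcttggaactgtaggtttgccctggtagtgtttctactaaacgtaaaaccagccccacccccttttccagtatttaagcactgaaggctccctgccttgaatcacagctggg

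The pair in Cyp3a23-3a1 lies at -144 to -130 from the start site and reads TGAACTtcaTGAACT. The pair in Cyp3a2 lies at -131 to -117 and reads TGAACTttaTGAACT. Counted from the 5′ end of the site, the only difference between them is C8T, which falls in the gap and leaves both half-sites as they are. A direct repeat with a gap of 3 was found in 13 of 33469 RefSeq promoters of this length (0.0388%), and any of the 12 arrangements in 19 (0.0568%). The 13 promoters belong to 10 genes, among them Cyp3a23-3a1 and Cyp3a2. Single half-sites were common: 24.3% of all promoters hold at least 1, and the windows of Cyp3a9, Cyp3a18 and Cyp3a62 hold 1, 2 and 1. A match of letters is a description and shows no binding, and sites farther upstream lie outside these windows.

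Cyp3a2 and Cyp3a23-3a1 are direct neighbours among the protein-coding genes of chromosome 12, and their upstream windows are identical at 207 of 231 aligned bases (89.6%). Cyp3a62 and Cyp3a9 lie 110 protein-coding genes further along with 3 genes between them, and their windows are identical at 173 of 232 aligned bases (74.6%). The other 8 pairs of windows are 56.9% to 66.7% identical. Further Cyp3a copies, Cyp3a73, Cyp3a2l1 and Cyp3a71-ps, lie between Cyp3a18 and Cyp3a2. Probe sequences were not compared with these copies, so signal from them cannot be told apart from that of the members.

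Cyp3a23-3a1, the form known for strong induction by PXR ligands, was higher in the pups of the higher mixture dose than in controls. The control arrays read -1.37, -0.80, -0.54 and -0.53, the 0.5M arrays -0.08, -0.32, -0.34 and -0.71, the M arrays 0.28, 0.00, 0.55 and 0.27, and the AhR arrays -0.66, -0.73, -0.80 and -0.76. All 4 M arrays lay above every array of the other 3 groups, 3 of the 4 0.5M arrays lay above every control, and the AhR arrays lay inside the control range. Of all transcripts, 4.19% had no overlap between M and controls in either direction, 4% between M and AhR and 2.8% between M and 0.5M. Shares for M above all other groups at once, and for 3 of 4 arrays above every control, were not computed.

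**Figure D1:**
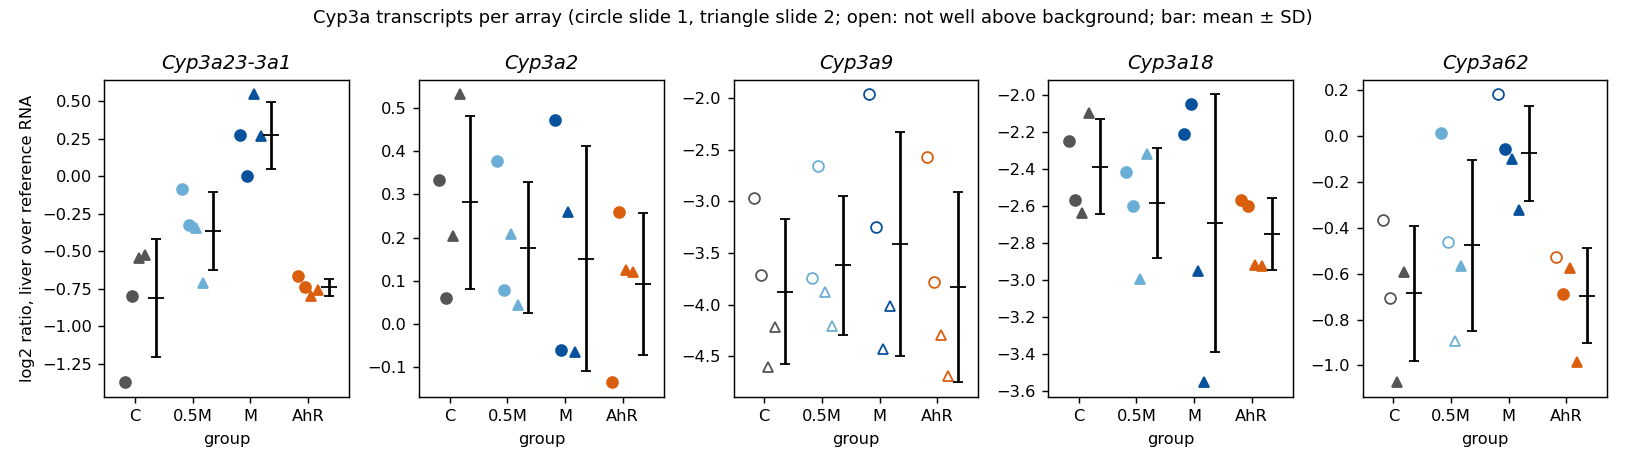
Log2 ratio of liver over reference RNA on each of the 16 arrays for the 5 Cyp3a transcripts, by group (circles, slide 1; triangles, slide 2; open symbols, liver signal not well above background; bars, mean ± SD of 4 arrays). The 4 M arrays of Cyp3a23-3a1 sit above all other arrays, and all Cyp3a9 symbols are open.

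The mean rose from -0.81 ± 0.40 (SD, n = 4) in controls to 0.27 ± 0.22 (SD, n = 4) in M, a log2 difference of 1.08 ± 0.17 (SE), or 2.12-fold (95% confidence interval 1.66 to 2.72). Its adjusted p in limma over all transcripts was 0.00719, and it was the 15th smallest p of the comparison. It was the only one of the 4 tested members to pass the threshold of 0.05 here, where 0.32% of all transcripts were called. The difference was 1.23 on slide 1 and 0.94 on slide 2. Array C 1 was the lowest control, and without it the difference was 0.90 (limma adjusted p = 0.0150). Without the 5 arrays chosen for their transcripts of other tissues the difference was 1.16 ± 0.21 (SE) and its limma adjusted p was 0.0590. That fit keeps only M 3 and M 4 of the M group, and the cause of the lost call was not tested.

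At the lower dose Cyp3a23-3a1 averaged -0.36 ± 0.26 (SD, n = 4), a log2 difference of 0.45 ± 0.17 (SE) from controls, or 1.36-fold (limma adjusted p = 0.699). No member was called in this comparison, where 0.0152% of all transcripts were. The difference was 0.89 on slide 1 and 0.01 on slide 2, and array C 1 lay on slide 1. Without that array the difference was 0.26. Along the doses 0, 0.5 and 1.0 mg/kg/day, the lower dose departed from the midpoint of C and M by -0.09 ± 0.15 (SE) on the log2 scale (limma adjusted p = 0.960), and a departure was called for no member and for 0.00761% of all transcripts.

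The AhR agonist mixture left Cyp3a23-3a1 at -0.74 ± 0.06 (SD, n = 4), a log2 difference of 0.07 ± 0.17 (SE) from controls (limma adjusted p = 1.00). No member was called in this comparison, against 0.00761% of all transcripts, and the interval for Cyp3a23-3a1 runs from 0.821-fold to 1.35-fold. Set against the AhR group, the M group was 2.02-fold higher, a log2 difference of 1.01 ± 0.17 (SE) with a limma adjusted p of 0.0178. Cyp3a23-3a1 was again the only member called, against 0.266% of all transcripts. That call is lost without any 1 of M 1, M 3, M 4, AhR 3 or AhR 4, with limma adjusted p-values of 0.0560 to 0.0856, while the log2 difference stays between 0.93 and 1.03. Without the 5 arrays with transcripts of other tissues it was 1.08 (limma adjusted p = 0.101). M was also above 0.5M by 0.64 on the log2 scale with no overlap of arrays, as were 2.8% of all transcripts in either direction, and its limma adjusted p was 0.449. No member was called between M and 0.5M or between 0.5M and AhR, where 0.0152% and 0.0228% of all transcripts were. A test of any difference over the 4 groups gave Cyp3a23-3a1 a limma adjusted p of 0.0227, and it was the only member among the 0.175% of transcripts called. This call is lost without any 1 of M 1, M 3, M 4 or AhR 4, with the replicate number as a block and without the 5 arrays.

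Cyp3a62, a form described mainly from the intestine, had its highest mean in M, with a difference from controls that did not pass the test. The control arrays read -0.37, -0.71, -1.07 and -0.59, the 0.5M arrays 0.01, -0.46, -0.89 and -0.57, the M arrays 0.18, -0.06, -0.10 and -0.32, and the AhR arrays -0.53, -0.69, -0.58 and -0.99. All 4 M arrays lay above every control and every AhR array, while 0.5M overlapped both. Beside controls, 4.19% of all transcripts had no overlap with M in either direction, and beside AhR 4% did.

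For Cyp3a62 the M group was 1.53-fold above controls (95% confidence interval 1.24 to 1.89), a log2 difference of 0.61 ± 0.14 (SE) with a limma adjusted p of 0.0992. It was 0.60 on slide 1 and 0.62 on slide 2. With arrays weighted by their quality it was 0.68 and its limma adjusted p was 0.0483. With the scanner software's ratio it was 1.51 ± 0.52 (SE), with a limma adjusted p of 0.317. The log2 differences from controls were 0.21 for 0.5M and -0.01 for AhR, and M was above AhR by 0.62 (limma adjusted p = 0.112).

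The Cyp3a62 signal was close to background, with a log2 Cy5 of 6.30 to 7.29. It was well above background on 10 of 16 arrays: 2 of C, 2 of 0.5M, 3 of M and 3 of AhR. By slide these were 3 of 8 arrays on slide 1 and 7 of 8 on slide 2. The 7 intestinal markers on the array had a mean log2 Cy5 of 6.43 to 6.70 in M and 6.45 to 6.58 in controls, and their part in the result was not tested. Fabp2 was well above background on 15 of 16 arrays, Cdh17, Lct and Lgals4 on 4 each and Vil1 on 1, while Cdx2 and Alpi were not on any.

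Cyp3a2, the main constitutive form of the male rat, showed no difference that passed the test. The control arrays read 0.33, 0.06, 0.20 and 0.53, the 0.5M arrays 0.38, 0.08, 0.21 and 0.04, the M arrays 0.47, -0.06, 0.26 and -0.06, and the AhR arrays -0.14, 0.26, 0.12 and 0.12. The groups overlapped in every comparison, and the 16 arrays spanned only 0.67 on the log2 scale.

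For Cyp3a2 the log2 difference between M and controls was -0.13 ± 0.14 (SE), with a limma adjusted p of 0.798 and an interval from 0.749-fold to 1.11-fold. This interval does not reach the 2.12-fold rise of Cyp3a23-3a1, its neighbour, whose upstream window is identical to its own at 89.6% of aligned bases. The differences from controls were -0.11 for 0.5M and -0.19 for AhR.

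**Figure D2:**
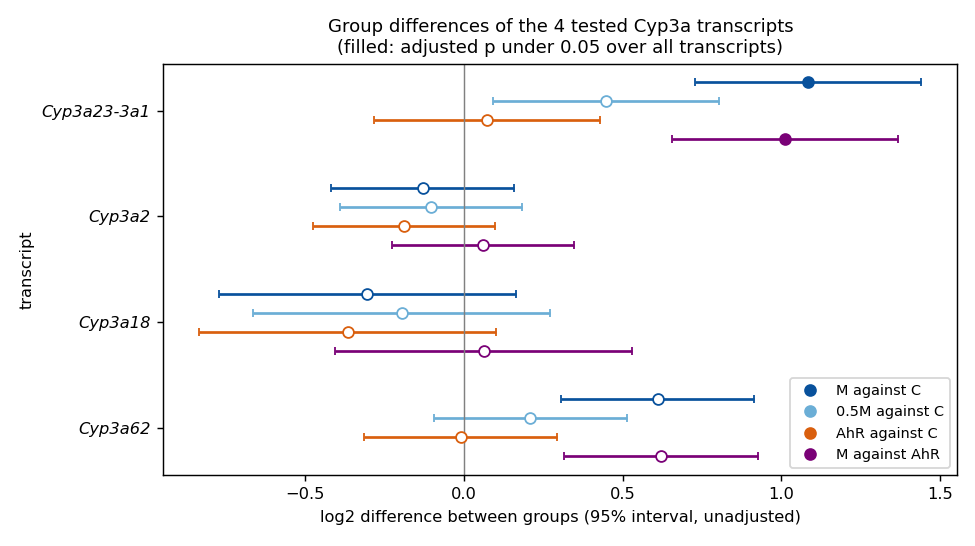
Log2 differences between groups, with 95% confidence intervals not adjusted for the number of tests, for the 4 Cyp3a transcripts that were tested (filled symbols, limma adjusted p under 0.05 over all transcripts). Filled symbols appear for Cyp3a23-3a1 alone, at 1.08 for M against C and 1.01 for M against AhR.

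Cyp3a18, a form that predominates in adult males, was not called in any comparison either. Its difference between M and controls had opposite signs on slide 1 and slide 2. The control arrays read -2.25, -2.57, -2.64 and -2.10, the 0.5M arrays -2.42, -2.60, -3.0 and -2.32, the M arrays -2.21, -2.05, -2.95 and -3.56, and the AhR arrays -2.57, -2.60, -2.92 and -2.93. The M arrays hold both the highest and the lowest of the 16 values, M 2 on slide 1 and M 4 on slide 2.

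The log2 difference of Cyp3a18 between M and controls was -0.31 ± 0.22 (SE), with a limma adjusted p of 0.695 and an interval from 0.585-fold to 1.12-fold. It was 0.28 on slide 1 and -0.89 on slide 2, each from 2 arrays a group, so slide cannot be told apart from single pools. The differences were -0.20 for 0.5M and -0.37 for AhR.

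**Figure D3:**
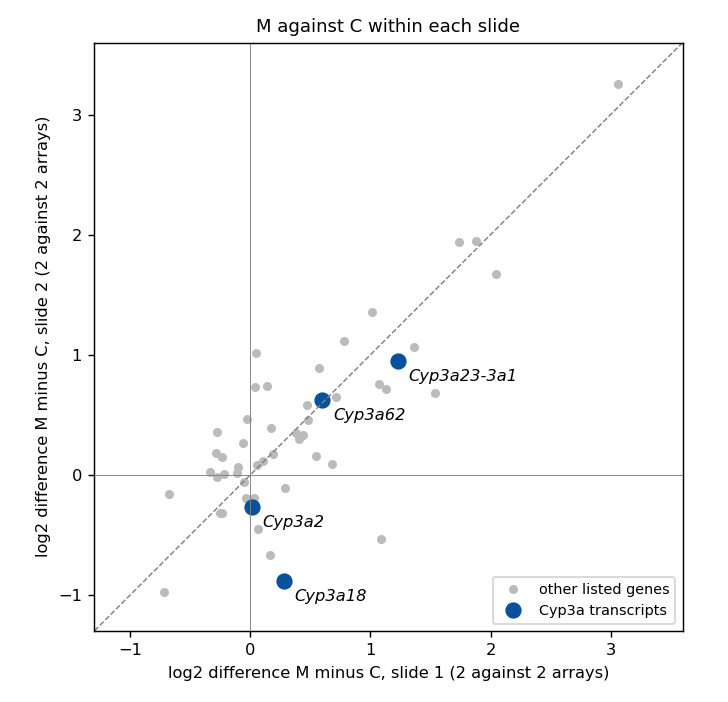
Log2 difference between M and C computed on slide 1 (horizontal axis) and on slide 2 (vertical axis), each from 2 against 2 arrays. Cyp3a23-3a1 lies at 1.23 and 0.94 and Cyp3a62 at 0.60 and 0.62, while Cyp3a18 lies at 0.28 and -0.89.

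Cyp3a9, a form higher in adult females, was not well above background in any of these livers. Its values were -2.97, -3.72, -4.60 and -4.21 in controls, -3.74, -2.66, -3.88 and -4.20 in 0.5M, -1.96, -3.25, -4.43 and -4.01 in M, and -2.57, -3.78, -4.30 and -4.69 in AhR. In every group the slide 1 arrays were higher than the slide 2 arrays, with -3.78 to -1.96 on slide 1 and -4.69 to -3.88 on slide 2. The reference channel was well above background on all 16 arrays, so the probe gave signal in the reference RNA. The liver signal exceeded the lowest signal of any probe marked well above background on 8 of 8 arrays of slide 1 and on 2 of 8 of slide 2, although it was not itself so marked. The means were -3.41 ± 1.08 (SD, n = 4) in M and -3.88 ± 0.70 (SD, n = 4) in controls, and no fold is given for a probe not well above background in either group.

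The responses to M were also compared between members, as the difference between the log2 ratios of 2 genes on each array, over all 10 pairs. For 3 pairs the M and C arrays did not overlap, which gives 0.0286, the smallest p that an exact two-sided permutation test of 4 against 4 allows. Cyp3a23-3a1 gained 1.22 on Cyp3a2, Cyp3a2 minus Cyp3a62 moved by -0.74, and Cyp3a18 minus Cyp3a62 moved by -0.92. After adjustment over the 10 pairs, 4 of which hold Cyp3a9, each of these exact permutation p-values was 0.0952. Over the 6 pairs of tested members, a choice made after seeing the data, it was 0.0571. At this size 6 of 10 pairs, or 4 of 6, would have to reach the smallest p before any could pass 0.05, so the missing calls say little about whether members differ. Cyp3a23-3a1 gained 0.47 on Cyp3a62 (exact permutation p = 0.171, adjusted 0.333).

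Across the 16 arrays, with each slide's mean removed, Cyp3a23-3a1 and Cyp3a62 had a Pearson r of 0.73. With the mean of each group on each slide removed instead, r was -0.08. This second value reflects only differences between the 2 arrays of a group on the same slide. The transcripts whose pattern was most like that of Cyp3a23-3a1 were Ugt2b15 (r = 0.923), Ugt1a6 (0.899), Tmtc4 (0.896), Cyp2b2 (0.896) and Cyp2c6v1 (0.893). For Cyp3a62 they were Cyp1a2 (0.850), Ceacam4 (0.824), Gstm2 (0.817), Apoa2 (0.796) and Cyp2b2 (0.795). These correlations are descriptions over arrays that share the group differences.

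The other known targets of PXR and CAR showed how the Cyp3a values sit within the wider response. Of 21 listed genes, 17 were tested: in M against controls 6 rose, none fell and 16 were above 0, with a median log2 difference of 0.68 against -0.00195 over all transcripts. Of all transcripts 0.259% rose and 49.4% were above 0. This list and the lists that follow were chosen with earlier results of these data known. Their counts and medians are therefore descriptions, and the shares over all transcripts beside them are no independent test. Cyp2b2, the phenobarbital-type P450 that CAR regulates, rose 8.91-fold (log2 3.16 ± 0.22 SE, limma adjusted p = 1.2e-06). Cyp2c7 rose 3.77-fold, Cyp2c6v1 3.63-fold, Aldh1a1, which oxidises retinal, 3.58-fold, Ugt2b1, a glucuronosyltransferase, 2.28-fold, and Gsta3, a glutathione transferase, 1.89-fold. The calls of Ugt2b1 and Gsta3 are less firm than the others: of 16 fits that each leave out 1 array, 5 lose Ugt2b1 and 4 lose Gsta3, and none loses the other 4 genes. Without the 5 arrays with transcripts of other tissues Aldh1a1 was at 1.82 on the log2 scale (limma adjusted p = 0.0662) and Gsta3 at 0.90 (0.103). Each of the 6 calls is lost in 2 to 6 of 15 other settings, and median centring loses every one.

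**Figure D4:**
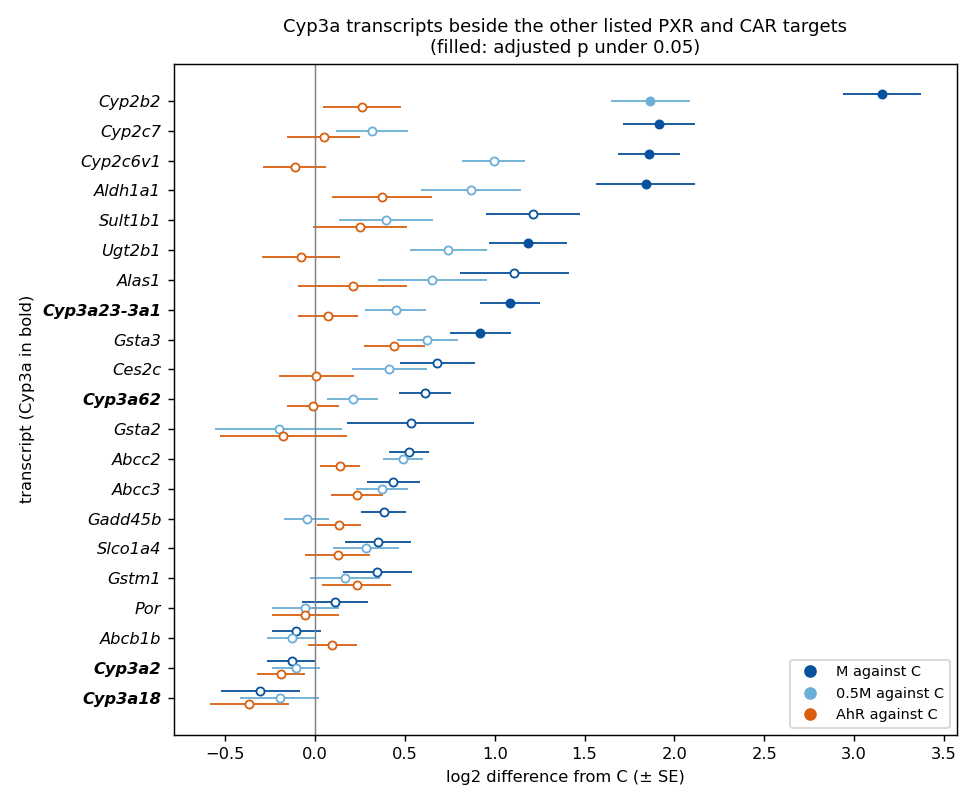
Log2 difference from controls (± SE) for the 4 tested Cyp3a transcripts and the other tested PXR and CAR targets (filled symbols, limma adjusted p under 0.05 over all transcripts). In M, Cyp2b2 is the farthest to the right at 3.16, and Cyp3a2 and Cyp3a18 lie to the left of 0.

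Among targets that did not pass in M against controls, the smallest p-values belonged to Abcc2 (log2 0.53, limma adjusted p = 0.0592), Sult1b1 (1.22, 0.0640), Alas1 (1.11, 0.179) and Ces2c (0.68, 0.222). At the lower dose 1 of the 17 rose, Cyp2b2 at 3.65-fold (limma adjusted p = 0.00180), where 0.0152% of all transcripts rose. The list median was 0.40 against -0.00354 over all transcripts. In the AhR group none of the 17 passed, where 0.00761% of all transcripts did, so this count says little about the list. The list median there was 0.13 against 0.000221 over all transcripts.

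The receptors and regulators of Cyp3a genes were not called in any of the 6 comparisons, where 0.00761% to 0.32% of all transcripts were. With shares this low, the lack of calls says little about these genes. Of 18 listed, 13 were tested, with a median log2 difference of -0.08 between M and controls, against -0.00195 over all transcripts. Nr1i2 (PXR) differed by -0.16 ± 0.10 (SE, limma adjusted p = 0.658) and Nr1i3 (CAR) by 0.22 ± 0.18 (SE, limma adjusted p = 0.736). Low p-values that did not pass were those of Nr1h4, the bile acid receptor (log2 -0.42, limma adjusted p = 0.164), Nr0b2, a repressor of nuclear receptors (0.95, 0.190), and Rxrb, a retinoid X receptor (-0.28, 0.200).

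Of 13 genes for electron donors and heme supply, all were tested and 2 rose in M against controls, where 0.259% of all transcripts rose, with a list median of 0.10 against -0.00195 over all transcripts. Cyb5a, the cytochrome b5 that passes electrons to CYP3A enzymes, was higher by 0.91 ± 0.11 (SE) on the log2 scale (limma adjusted p = 3.3e-04). The Cyb5a call is lost in 3 of 15 other settings, median centring and each slide alone, and in no fit that leaves out 1 array. Pgrmc1, a heme-binding partner of P450s, was higher by 0.47 ± 0.09 (SE; limma adjusted p = 0.0459), but this call is lost in 11 of 15 other settings, among them the fit without the 5 arrays (0.47, limma adjusted p = 0.112), and in 12 of the 16 fits that leave out 1 array. Por, the reductase that serves all microsomal P450s, differed by 0.11 (limma adjusted p = 0.886), and among the heme genes Fech differed by 0.36 and Alad by 0.28 without passing.

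Since Cyp3a2, Cyp3a9 and Cyp3a18 follow sex in adult rats, other P450s with such a pattern were set beside them. Of 8 genes tested, Cyp2c7 rose and Cyp17a1, the steroid 17-hydroxylase, fell by 0.85 on the log2 scale (SE 0.13, limma adjusted p = 0.00719) in M against controls, where 0.259% of all transcripts rose and 0.0609% fell. The list median was 0.33 against -0.00195 over all transcripts. The list was not split by the sex in which a form is higher, so its median has no direction by sex. Cyp2c7 is also counted among the PXR and CAR targets. Cyp4a2 was well above background on 2 of 4 arrays in C and on 2 of 4 in M. The call of Cyp17a1 is lost with the scanner software's ratio (limma adjusted p = 0.0692), with median centring and on each slide alone. Cyp2c11, the male-specific form, differed by -0.19 (limma adjusted p = 0.762), Cyp2a1 by 0.73 (0.0810), Cyp2a2 by 0.38 (0.503) and Cyp4a2 by 0.38 (0.754).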

How the data were processed

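Liver RNA on 16 two-colour arrays was scanned with Agilent Feature Extraction 10.7.3.1, per the file headers. The deposited scan files hold median signal and background as scanner intensity, a log10 ratio, and spot marks of the unit other (0 or 1). The authors' deposited table is on the log2 scale; each column correlated at least 0.965 with its own scan file, and its centring is not given in the sources used here.

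Signals were corrected with normexp (offset 50) and loess in limma 3.58.1 (R 4.3.3). Probes were kept whose liver signal stood well above background on 4 or more of the 16 arrays (14517, 12 left out for missing values), and the brightest probe represented a gene. limma fitted group and slide, with Benjamini-Hochberg adjustment over 13139 transcripts; the median SE was 0.105. The number of arrays limits the precision. The fit was tested on simulated data.

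Members and lists were chosen with earlier results of these data known. Named were all members, listed genes past the threshold and up to 4 more with the smallest p in M against C, and the 5 transcripts most like each tested member; some items under this rule are not reported here. Alternatives covered background correction, scaling, filter, slide, weights and left-out arrays. Same-numbered arrays were not paired. With the mean of each group on each slide removed, 12 correlations between same-numbered arrays over all transcripts ran from -0.40 to 0.22. Of these, 5 exceeded 0.1.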

Additional observations from a re-analysis of the deposited data

How the results depend on the processing

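The rise of Cyp3a23-3a1 in M kept its direction under every alternative run, and leaving out single arrays gave 0.90 to 1.17 with each call kept. Its call was lost with the scanner software ratio (1.02), median centring (0.79), slide 1 alone (1.23) and slide 2 alone (0.94). It was also lost without the 5 arrays with other tissue (1.16). Under each of these settings the number of members called was 0 for M against C and for the 4-group test. The slope over dose is the same contrast as M against C, so its counts are the same by construction and add no support. Array weights gave 2 members for M against C, and so for the slope. For M against AhR the number was 0 with the scanner ratio, median centring, slide 1 alone and without the 5 arrays, and 0 to 1 when single arrays were left out, as for the 4-group test. With the replicate number as a block, the 4-group test called 0 members, M against C kept Cyp3a23-3a1 (limma adjusted p = 0.0161), and 36 transcripts rose in place of 34. The number of pairs of members past the threshold was 0 under each setting, which says nothing about stability, as the exact test could hardly pass. Of all transcripts, 42 were called in M against C, 20 with the scanner ratio, 1 with median centring, 4 on slide 1, 7 on slide 2 and 67 with array weights; the cause was not tested.

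Directions turned for differences that were not called. For Cyp3a23-3a1 in AhR against C the values were -0.0023 with median centring, -0.24 on slide 2, and -0.11 to 0.16 over left-out arrays. Cyp3a2 gave 0.0094 in M against C and 0.0306 in 0.5M against C on slide 1, 0.0036 in M against 0.5M without M 2 and 0.5M 4 (left-out arrays -0.14 to 0.054), and in M against AhR -0.23 with median centring and -0.0254 on slide 2 (-0.058 to 0.14). Cyp3a18 on slide 1 gave 0.28 in M against C and 0.38 in M against 0.5M (-0.27 to 0.13). In M against AhR it gave -0.0414 with the scanner ratio, -0.12 with median centring, -0.33 on slide 2, -0.0383 with array weights, -0.0862 without M 2 and 0.5M 4 and -0.34 without the 5 arrays (-0.10 to 0.30). Cyp3a62 in AhR against C gave 0.0150 with the scanner ratio, 0.0214 with median centring, 0.0525 on slide 2 and 0.0368 with array weights (-0.11 to 0.080). In M against C, Alad gave -0.0581 with median centring, Cyp4a2 -0.13 with the scanner ratio, Cyp2c11 0.0636 on slide 1, and Cyp3a9 -0.29 without the 5 arrays (-0.0218 to 0.80). Signal near background limits Cyp3a62 and Cyp3a9 was not well above background, and a slide alone has 2 arrays a group.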

Other observations

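Transcripts whose pattern over the 16 arrays was most like that of Cyp3a2, with slide means removed, were Or51b6 (Pearson r = 0.817), Slc1a2 (0.811), Vgll4 (0.757), Asgr1 (0.752) and Rmc1 (0.749). For Cyp3a18 they were Naca (0.798), Ltbp4 (0.789), Tnfrsf21 (0.788), Tada2a (0.784) and Atp2c1 (0.752). None of these 10 passed in M against C. Cyp3a18 and Cyp3a62 had an r of 0.08 with slide means removed and 0.70 with the mean of each group on each slide removed. The 0.70 reflects only differences between the 2 arrays of a group on the same slide. Of such 2 arrays, the one with the higher Cyp3a18 value tended to have the higher Cyp3a62 value.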
